A study of Mus musculus with 168 samples.

Results

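The C/EBP transcription factors Cebpa, Cebpb, Cebpd and Cebpg, the Pim kinases Pim1 and Pim3 and the Tribbles pseudokinases Trib1 and Trib2 are the 8 genes described here, of 18193 genes that the arrays measure with a probe set of their own. They were chosen by gene family and by earlier results of these same arrays, with no threshold on any value, and they are represented by every probe set annotated to 1 of them alone, 18 in all. Because of that choice the levels and changes below are a description, and the adjusted p values, which come from fits over all 45037 probe sets, are not independent evidence about these genes. RNA was measured with 1 Affymetrix Mouse Genome 430 2.0 array per sample in 7 brain regions of C57BL/6 mice aged 8 to 9 weeks, with 3 arrays for each region at each of 8 time points. The regions were cerebellum, pons with medulla, midbrain, thalamus, striatum, hippocampus and cortex. Mice were taken after 1 or 3 h of hypoxia at 8% oxygen (H1 and H3), or after 3 h of hypoxia followed by 1, 3, 6, 12 or 24 h in room air (reoxygenation, R1, R3, R6, R12 and R24). By the study's methods, the mice they were set against (sham) spent 3 h in the chamber in room air and then 24 h in the home cage. The labels of the sham arrays read 0 h instead. With the timing of the methods, recent handling, the chamber and the hour of day cannot be told apart from hypoxia at any time point before R24. The study's methods give 3 mice for each group and 24 mice in all, so the 7 regions of a group share 3 mice, but the labels do not say whether equal replicate numbers in different regions come from 1 mouse.

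C/EBP proteins bind DNA as dimers through a basic leucine zipper. Cebpb and Cebpd are inducible members that take part in inflammatory, acute phase and hormone responses, Cebpa is best known as a differentiation factor of fat, liver and myeloid cells, and Cebpg lacks a strong activation domain of its own and acts through the partner it pairs with. Pim kinases are serine/threonine kinases without a regulatory domain, so that their activity follows how much of them is made, and they are known downstream of cytokine receptors and STAT factors, where they favour cell survival and growth. Tribbles proteins have a kinase fold with little or no catalytic activity. They bridge substrates to the ubiquitin ligase COP1, and C/EBP alpha is the best known of these substrates, which links them to the C/EBP factors.

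The 250 bases before the annotated start of Cebpb, Cebpg and Pim3 are shown because these were the members called over the whole brain at both H3 and R1 for which the RefSeq table (GRCm38.p6) holds a promoter, as it does for 6 of the 8 genes. Cebpb lies at chr2:167688665-167688914 on the plus strand, Cebpg at chr7:35056567-35056816 on the minus strand and Pim3 at chr15:88861944-88862193 on the plus strand, each written in the direction of its gene. Capitals mark TGACG or its reverse, the core that cyclic AMP response elements share, in Cebpb, and ATTGG, which is CCAAT on the other strand, in Cebpg and Pim3.
Cebpb: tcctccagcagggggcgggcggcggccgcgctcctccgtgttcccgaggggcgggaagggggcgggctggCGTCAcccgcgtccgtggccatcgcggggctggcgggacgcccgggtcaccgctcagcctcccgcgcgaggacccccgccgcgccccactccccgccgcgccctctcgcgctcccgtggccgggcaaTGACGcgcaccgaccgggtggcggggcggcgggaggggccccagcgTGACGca
Cebpg: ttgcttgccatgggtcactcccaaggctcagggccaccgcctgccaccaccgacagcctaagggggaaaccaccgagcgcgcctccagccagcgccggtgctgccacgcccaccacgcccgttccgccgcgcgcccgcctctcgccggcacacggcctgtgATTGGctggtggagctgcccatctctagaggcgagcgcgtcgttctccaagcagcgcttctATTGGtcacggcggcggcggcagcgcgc
Pim3: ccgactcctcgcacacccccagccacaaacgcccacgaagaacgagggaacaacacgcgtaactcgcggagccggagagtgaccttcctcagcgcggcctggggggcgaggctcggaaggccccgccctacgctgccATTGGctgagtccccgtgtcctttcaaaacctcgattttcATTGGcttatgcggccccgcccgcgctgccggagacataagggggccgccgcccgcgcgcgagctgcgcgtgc
The Cebpb window holds TGACG at 180 (reversed), 53 and 7 bases before the start, and 17.8% of the 32851 windows of 250 bases hold it on either strand. ATTGG stands 89 and 28 bases before the start of Cebpg and 113 and 73 bases before that of Pim3, and CCAAT on either strand is in 33.8% of windows. Of the other motifs searched on both strands, TGACGTCA (1.55% of windows, and holding TGACG within it), TTGCNNAA (the C/EBP motif, 9.56%), TTCNNNGAA (the STAT motif, 7.02%), ACGTG (16.6%), TGTTCT (16.1%) and TATAAA (12.4%), none has a match in these 3 windows. A match to a motif is a description of the letters and not a binding site.

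Intensities are linear signal values on a common array scale, and differences are given on the log2(intensity + 16) scale, which holds down the differences of dim probe sets. Because binding differs between probe sets, their intensities do not rank the genes. Averaged over all arrays, the brightest probe set of a gene read 495 for Pim3, 391 for Trib2, 169 for Cebpg, 153 for Cebpb, 97.7 for Cebpa, 83.6 for Cebpd, 51 for Pim1 and 16.3 for Trib1. Both probe sets of Trib1 were near the constant of 16, below it on 47% and 75.6% of arrays, and Trib2 1459852_x_at was below it on 100% of them.

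In each region, limma compared the 3 arrays of a time point with the 3 sham arrays, and a call below means an adjusted p under 0.05 by Benjamini-Hochberg over all probe sets. The 18 probe sets in 7 regions give 126 pairs. At H3, 7 of them were called higher (5.56%) and 4 lower (3.17%), beside 0.157% and 0.153% over all probe sets and regions. At R1 the counts were 9 higher (7.14%) and 1 lower (0.794%), beside 0.158% and 0.25%. At H1 none was called, beside 0.0301%, and 16 pairs had an unadjusted p under 0.05. At R3 to R24 none was called either, beside 0.00238%, and unadjusted p was under 0.05 in 13, 13, 10 and 5 pairs. With the genes chosen on earlier results of these arrays, nothing is read from these shares. The higher calls came from Cebpb, Cebpd, Pim3 and Trib1, and the lower calls from Cebpg alone, with every called group of 3 arrays clear of its sham arrays. Leaving 1 replicate number out of all 8 groups, so that 2 arrays a group remain, ended each of these region calls for at least 1 of the 3 numbers. Over the time course as a whole, the F-test passed in 0.96% of all probe sets and regions. Of the members it passed in 6 and 5 of the 7 regions for 2 probe sets of Pim3, in 4 for 1 probe set each of Cebpd and Cebpg, in 2 and 1 for Cebpb, in 1 for Cebpa and in 1 for Trib1.

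**Figure D1:**
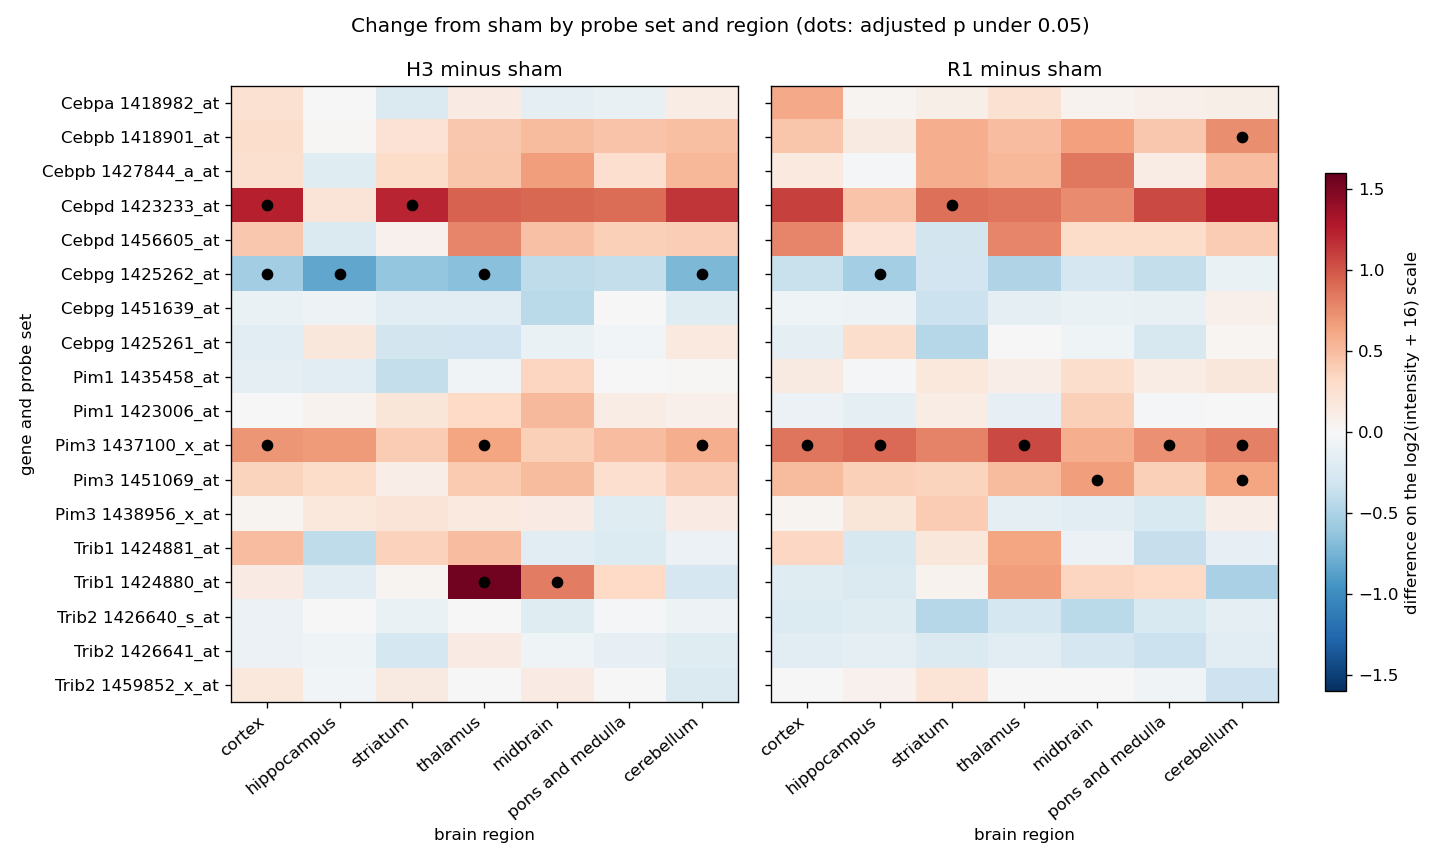
Change from sham at H3 (left) and R1 (right) for each of the 18 probe sets (rows) in the 7 regions (columns), as a difference on the log2(intensity + 16) scale in colour, with a dot where the adjusted p was under 0.05. Red squares run across Cebpd 1423233_at and Pim3 1437100_x_at in every region, and blue squares across Cebpg 1425262_at. The dark square of Trib1 1424880_at in thalamus at H3 stands for a probe set whose sham arrays in that region were below the added constant of 16.

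A second fit asked the same of the whole brain, with the mean of the 7 regions for each time point and replicate number, 24 values in all. At H3, 5 of the 18 probe sets were higher (Cebpb, Cebpd and Pim3) and 1 lower (Cebpg), beside 1.2% and 2.16% over all probe sets. At R1, 5 were higher and 2 lower (Cebpg and Trib2), beside 1.65% and 3.83%. At H1 none was called, beside 0.158%, with an unadjusted p under 0.05 for 4 probe sets. At R3 to R24 none was called, beside 0.206%, with an unadjusted p under 0.05 for 2, 3, 2 and 2 probe sets at R3, R6, R12 and R24.

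**Figure D2:**
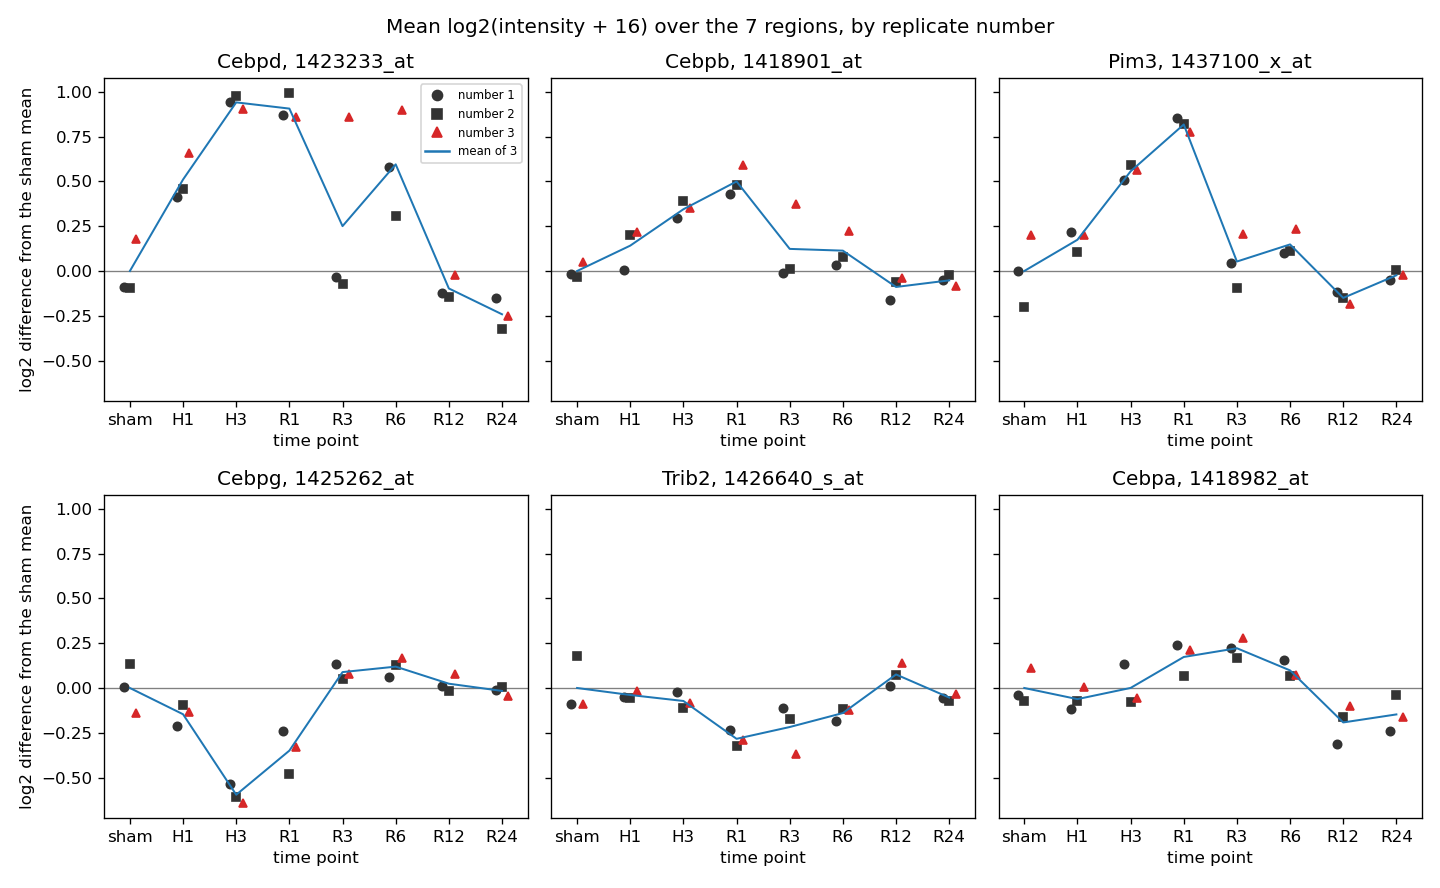
Mean over the 7 regions of log2(intensity + 16), less the sham mean, by time point for 6 probe sets, with a symbol for each replicate number and a line through the mean of 3. Cebpd peaks at H3 and Pim3 at R1, Cebpg dips to -0.60 at H3, and the red triangles of number 3 leave the others at R3 for Cebpd and Cebpb.

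Cebpd, an inducible C/EBP factor, was higher after hypoxia by more than any other member over the whole brain at H3 and at R1. In striatum its probe set 1423233_at read 125, 115 and 77.2 at H3, against 41.5, 32.7 and 32 in sham, and the 2 groups do not overlap. The difference there was 1.22 (SE 0.17, 2.34-fold, adjusted p = 0.00232), and without any 1 replicate number the adjusted p was 0.0546 to 0.352. In cortex it read 99.9, 111 and 108 at H3, against 25, 33.4 and 50.8 in sham, a difference of 1.25 (SE 0.24, 2.38-fold, adjusted p = 0.0286). That call in cortex was lost without any 1 of 5 of the 6 arrays, with an adjusted p of 0.0777 to 0.158, and was kept only without the third sham array. The H3 arrays lay above all sham arrays in 6 of the 7 regions, and hippocampus was the exception, with 161, 247 and 220 at H3, against 178, 191 and 162 in sham. At R1 all arrays lay above sham in 7 of 7 regions, and the difference ran from 0.46 in hippocampus to 1.25 in cerebellum. Only striatum was called at R1, at 0.88 (adjusted p = 0.0273), with 90.3, 72.3 and 73.1, against 41.5, 32.7 and 32 in sham, and that call was lost, with an adjusted p of up to 0.128, without any 1 array other than the first sham array. In cerebellum the same probe set read 110, 118 and 94.1 at R1, against 32.2, 25.6 and 53.7 in sham, without overlap and without a call.

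Across the 7 regions together, Cebpd was 0.94 higher at H3 (SE 0.17, 1.92-fold, adjusted p = 0.00264) and 0.91 higher at R1 (SE 0.17, 1.87-fold, adjusted p = 0.00282), and the 2 time points differed by -0.03 (adjusted p = 0.969 for R1 against H3). Both calls ended without replicate number 1 (adjusted p 0.124 at H3 and 0.103 at R1) or number 2 (0.123 and 0.136). After 1 h of hypoxia the difference was 0.51 with all 3 values above sham, at an unadjusted p of 0.00776 and an adjusted p of 0.387. The cortex arrays read 69.7, 84.7 and 74.3 at H1, all above the 25, 33.4 and 50.8 of sham. At 12 h of reoxygenation the difference was -0.10 and at 24 h -0.24, neither called. The dimmer probe set 1456605_at, with a mean intensity of 28, was not called, and its whole-brain difference was 0.33 at H3 (adjusted p = 0.124) and 0.35 at R1 (adjusted p = 0.0641). Over 49 changes from sham (7 regions at 7 time points), the 2 probe sets of Cebpd had a correlation of 0.38, given as a description because the changes of a region share their sham arrays.

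**Figure D3:**
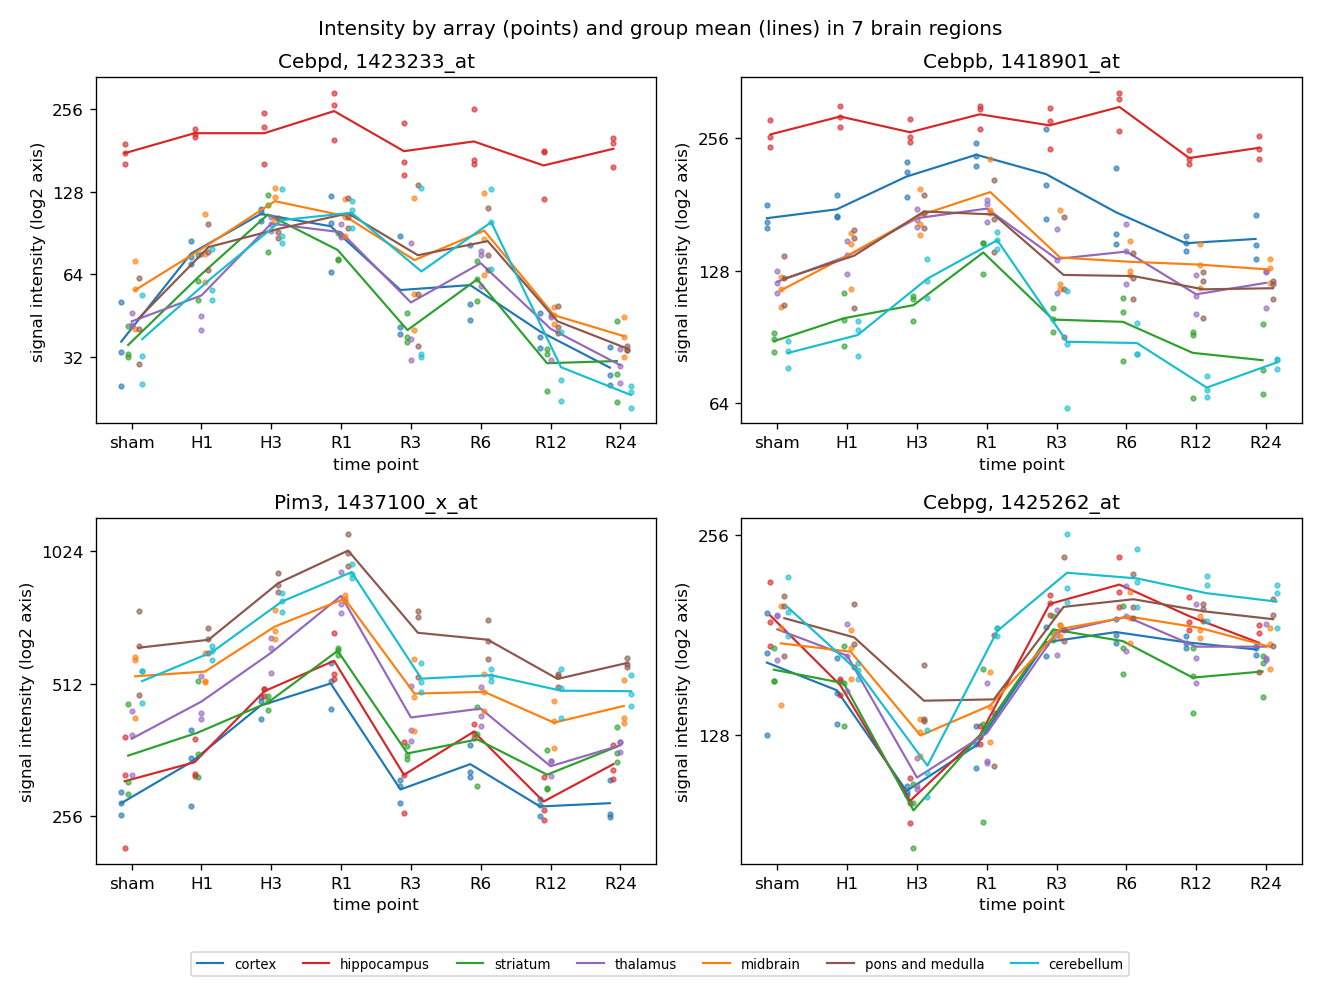
Signal intensity (log2 axis) by time point for Cebpd, Cebpb, Pim3 and Cebpg, with each array as a point and each region's mean of 3 arrays as a line. The hippocampus line of Cebpd and Cebpb stays above the other regions at every time point, Pim3 peaks at R1, and Cebpg is lowest at H3 or, in pons and medulla, level between H3 and R1.

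Cebpb, which encodes C/EBP beta, was higher by less than Cebpd and reached its highest level over the whole brain at R1. In cerebellum the probe set 1418901_at read 143, 150 and 157 at R1, against 83.9, 76.7 and 88.7 in sham, groups that lie far apart, and the difference was 0.74 (SE 0.13, 1.67-fold, adjusted p = 0.00656). This was the only region call for Cebpb, and it was kept without each of the 6 arrays in turn but lost without any 1 replicate number in all groups (adjusted p 0.0735 to 0.202). In striatum it read 148, 148 and 126 at R1, against 89.2, 92.3 and 83.7 in sham, and in cortex 221, 233 and 250 at R1, against 165, 160 and 180 in sham, both without overlap and without a call. The arrays lay above all sham arrays in 6 of 7 regions at H3 and again at R1. Hippocampus, where sham was already highest, read 251, 258 and 283 at H3, against 281, 258 and 244 in sham, and these groups overlap. In the whole-brain fit 1418901_at was 0.34 higher at H3 (SE 0.08, 1.27-fold, adjusted p = 0.0183) and 0.50 higher at R1 (1.41-fold, adjusted p = 0.00065). The call at H3 was lost without any 1 of 4 of the 6 values (adjusted p 0.0627 to 0.0838), and that at R1 was kept without each and lost without replicate number 2 in all groups (0.0885). The second probe set, 1427844_a_at, was called at both, at 0.32 (adjusted p = 0.00482) and 0.38 (adjusted p = 0.000814), each kept without any 1 value. Without any 1 replicate number the H3 call ended (0.0658 to 0.089), and without number 2 the R1 call did (0.0543). Its changes had a correlation of 0.76 with those of the first. R1 stood 0.16 above H3 on 1418901_at (adjusted p = 0.466) and 0.06 above it on 1427844_a_at (adjusted p = 0.785), neither a call.

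Cebpg, the member that acts through its dimer partners, was lower, and it was the only member called lower in single regions. In hippocampus the probe set 1425262_at read 101, 110 and 94.3 at H3 and 132, 124 and 127 at R1, against 189, 217 and 174 in sham. Both groups lie below every sham array, by -0.83 at H3 (adjusted p = 9.2e-05) and by -0.54 at R1 (adjusted p = 0.00864). Without replicate number 1 or 2 in all groups the adjusted p at H3 was 0.0656 or 0.054. The call at R1 was lost without the second sham array (adjusted p = 0.0668) or the third R1 array (adjusted p = 0.0526). In cerebellum it read 130, 103 and 112 at H3 and 180, 185 and 185 at R1, against 196, 221 and 180 in sham. The difference at H3 was -0.72 (adjusted p = 0.00134), and R1 was 0.61 above H3, a call, and overlaps sham. The first call ended without replicate number 2 (0.256) or 3 (0.0753), and the second without any 1 number (0.123 to 0.298). In thalamus it read 118, 106 and 107 at H3, against 166, 193 and 194 in sham (-0.66, adjusted p = 0.0175), and in cortex 104, 107 and 105, against 170, 195 and 128 in sham (-0.55, adjusted p = 0.0286). The thalamus call was lost without the second or the third sham array or the second or the third H3 array (adjusted p 0.0818 to 0.109), and the cortex call without any 1 of the 6 but the third sham array (0.09 to 0.155). At H3 all arrays of this probe set lay below all sham arrays in 7 of 7 regions. On each of the other 2 probe sets that held in 1 region. On 1425261_at all H3 arrays also lay above sham in 1 region, cerebellum.

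In the whole-brain fit Cebpg was at -0.60 against sham at H3 (SE 0.06, 0.662-fold, adjusted p = 9.47e-06), at -0.45 against H1 (adjusted p = 0.000767) and at -0.35 against sham at R1 (adjusted p = 0.00176), all 3 kept without any 1 value. Without 1 replicate number throughout, the first was kept, the second ended without number 2 (0.0559) or 3 (0.0958) and the third without number 2 (0.218). These calls belong to 1 probe set of 3. The others read -0.16 (adjusted p = 0.404) and -0.09 (adjusted p = 0.609) at H3, neither called, and their changes had correlations of 0.45 and 0.09 with those of 1425262_at. Which transcripts each probe set reads is not given in the sources used here. R1 was 0.25 above H3 over the whole brain (adjusted p = 0.049), and leaving out any 1 of 5 values ended that call.

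Cebpa, the differentiation factor, was not called in any region or over the whole brain. In cortex all 3 arrays read at least 127 at R1, against 80.1, 110 and 89 in sham, without overlap, a difference of 0.61 at an adjusted p of 0.122. In cortex the F-test over the 8 groups passed, at an adjusted p of 0.0315. At H3 its intensity lay between 64.7 and 179 over the 21 arrays of the 7 regions (median 92.3), against 54.4 to 163 (median 90.9) in sham.

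Pim3, the member of the kinase family that moved, was called in more regions than any other member. In cerebellum the probe set 1437100_x_at read 745, 822 and 789 at H3 and 887, 955 and 905 at R1, against 547, 462 and 547 in sham. Both time points are clear of sham, by 0.59 at H3 (adjusted p = 0.00345) and 0.80 at R1 (adjusted p = 0.000237), and both calls were kept without each array in turn. Without any 1 replicate number in all groups the H3 call ended (0.0781 to 0.278), and the R1 call ended without number 1 (0.0538) or 2 (0.14). In cortex it read 467, 478 and 425 at H3 and 519, 570 and 448 at R1, against 291, 274 and 258 in sham. The differences were 0.70 (adjusted p = 0.0122) and 0.86 (adjusted p = 0.00503), and the first was lost without any 1 of 4 arrays (adjusted p up to 0.0683), and the second without any 1 replicate number (0.102 to 0.346). In thalamus it read 541, 649 and 615 at H3 and 774, 740 and 914 at R1, against 317, 392 and 443 in sham, by 0.63 (adjusted p = 0.0485) and 1.05 (adjusted p = 0.00303). The thalamus call at H3 was lost without any 1 of 5 arrays (0.0675 to 0.248), and that at R1 was kept without each array and lost without replicate number 1 (0.123) or 2 (0.152). Hippocampus at R1 read 668, 538 and 524, against 318, 217 and 388 in sham (0.90, adjusted p = 0.0199), and pons and medulla 1120, 1010 and 944, against 622, 483 and 747 (0.74, adjusted p = 0.0353). Those 2 calls were lost without any 1 of 4 arrays (0.0542 to 0.104) and of 5 arrays (0.084 to 0.187).

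At R1 all arrays lay above all sham arrays in 7 of 7 regions for 1437100_x_at and for 1451069_at alike. On 1451069_at the calls were in midbrain, with 344, 357 and 345 at R1, against 188, 205 and 253 in sham (0.66, adjusted p = 0.0195), and in cerebellum, with 333, 346 and 345, against 236, 202 and 207 (0.63, adjusted p = 0.0132). These calls were lost without any 1 of 5 arrays (0.0673 to 0.0982) and of 3 arrays (0.0538 to 0.075). Over the whole brain Pim3 1437100_x_at was 0.56 higher at H3 (SE 0.08, 1.47-fold, adjusted p = 0.000162) and 0.82 higher at R1 (1.76-fold, adjusted p = 4.29e-06). For 1451069_at the differences were 0.34 (adjusted p = 0.00184) and 0.49 (adjusted p = 3.96e-05), and all 4 calls were kept without any 1 value. The H3 call of 1451069_at ended without replicate number 1 (0.0833) or 2 (0.122), and the other 3 were kept without any 1 number. H3 was above H1 by 0.38 (adjusted p = 0.0185) and 0.25 (adjusted p = 0.0454) on the 2 probe sets, calls lost without any 1 of 3 and of 6 values. R1 stood 0.26 above H3 on 1437100_x_at, without a call (adjusted p = 0.101). The changes of these 2 probe sets had a correlation of 0.87. The third, 1438956_x_at, was not called and read 0.09 at H3 and 0.03 at R1 over the whole brain, with correlations of 0.29 and 0.25 with the others.

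Pim1, the founding member of the kinase family, was not called in any region or over the whole brain. Its probe set 1435458_at read 11.8 to 87.9 at H3 (median 47.3) and 22.5 to 95.6 at R1 (median 55), against 20.7 to 96.2 in sham (median 46.3), so that the groups overlap. Its regional differences at H3 ran from -0.39 in striatum to 0.35 in midbrain, and in midbrain it read 49.8, 72.8 and 71.3 at H3, against 39.4, 48.9 and 53 in sham, which overlap. There the dimmer 1423006_at read 34.6, 30.5 and 35.2 at H3, against 19.8, 21.9 and 14.3 in sham, all above, a difference of 0.52 (unadjusted p = 0.0121, adjusted p = 0.439). The 2 probe sets of Pim1 had a correlation of 0.17 over the 49 changes.

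Trib1, a Tribbles pseudokinase, was called at H3 in thalamus and midbrain on 1 dim probe set. In thalamus 1424880_at read 68.2, 39.1 and 64.4 at H3, against 4.98, 10 and 11.2 in sham, a difference of 1.55 (adjusted p = 0.00282) that was kept without each of the 6 arrays and lost without replicate number 1 (0.36) or 2 (0.0745) in all groups. At H1 it read 7.75, 7.34 and 14.6 there, so that H3 was also above H1 (1.49, adjusted p = 0.0161, lost without any 1 of 4 arrays), and at R1 27.9, 37.7 and 9.4. All 3 H3 arrays are above the constant of 16 and all 3 sham arrays below it. The summed intensity of 5 choroid plexus markers in these thalamus samples was 4960, 1070 and 472 at H3, against 727, 676 and 516 in sham, so 2 of the 3 H3 samples held more than any sham sample, and the third, with the lowest sum of the 6, read 64.4 for Trib1. At R1 the sums were 3980, 686 and 6240, beside the 27.9, 37.7 and 9.4 of Trib1. Their part in the Trib1 result was not tested. In midbrain it read 14, 18.1 and 36 at H3, against 4.2, 5.05 and 6.8 in sham (0.82, adjusted p = 0.0331), lost without any 1 of 5 arrays (adjusted p 0.0678 to 0.147). Sham arrays were themselves uneven elsewhere, with 5.17, 68.2 and 14.7 in cortex and 9.42, 66.9 and 33.5 in cerebellum. The other probe set, 1424881_at, was not called anywhere, and its changes had a correlation of 0.14 with those of the first.

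**Figure D4:**
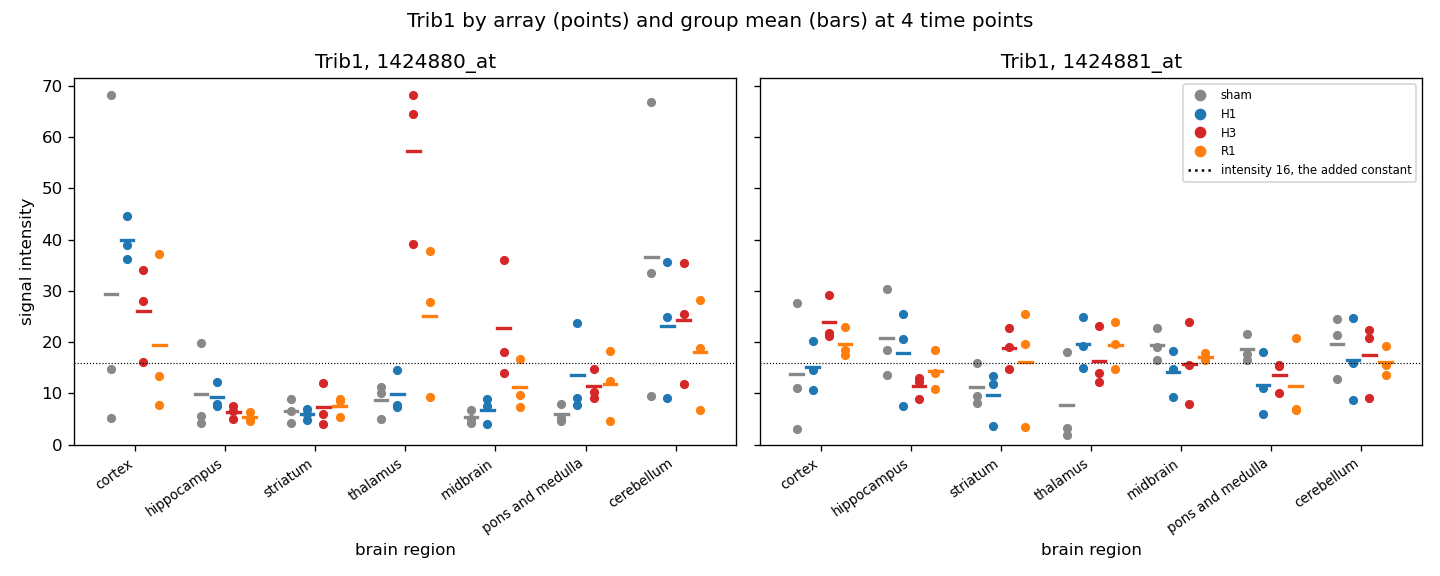
Signal intensity of the 2 Trib1 probe sets in each region at 4 time points (sham, H1, H3 and R1), each array a point, the mean of 3 a bar and the dotted line the added constant of 16. On 1424880_at the thalamus H3 arrays stand at 39.1 to 68.2, above sham at 4.98 to 11.2, while on 1424881_at no region was called.

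Trib2, the other Tribbles gene, was lower at R1 over the whole brain and in no single region. The probe set 1426640_s_at was at -0.28 (SE 0.07, 0.822-fold, adjusted p = 0.0123), a call that ended without the second sham value (-0.19, adjusted p = 0.0909) or the second R1 value (-0.26, adjusted p = 0.0601), and without replicate number 1 (0.0525) or 2 (0.437) in all groups. In midbrain it read 385, 350 and 376 at R1, against 562, 510 and 453 in sham. In striatum the R1 arrays read 345, 314 and 344, against 410, 502 and 487 in sham, and in thalamus 318, 378 and 400, against 433, 447 and 456. These were the 3 regions where all R1 arrays lay below sham. At R3 the whole-brain difference was -0.22, with all values below sham and no call (adjusted p = 0.146). The second probe set, 1426641_at, followed it with a correlation of 0.62 and was not called.

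Whether the response differed between regions was tested with an F-test over the 7 regions, with arrays of 1 time point and number as a random block. No member was called at H3, beside 0.0222% of all probe sets, or at R1, beside 0.135%. An unadjusted p was under 0.05 for 4 of the 18 probe sets at H3 and 3 at R1. For Cebpd 1423233_at, with its small difference in hippocampus, the unadjusted p at H3 was 0.0523 (adjusted p = 1), and for Cebpg 1425262_at 0.0384. For Cebpb the unadjusted p at H3 was 0.0948 on 1418901_at and 0.0314 on 1427844_a_at. At R1 it was 0.0465 (adjusted p = 0.742) and 0.00825 (adjusted p = 0.479) on these 2 probe sets. The lowest was that of Trib1 1424880_at at H3, 8.33e-05 (adjusted p = 0.166). A larger change in one region than in another is therefore not shown for these genes. Between adjacent time points, R1 against H3 was called in 1 of the 126 pairs, Cebpg in cerebellum, beside 0.121% of all probe sets and regions, and H3 against H1 in 1, Trib1 in thalamus, beside 0.0254%. Over the whole brain 1 of 18 was called at R1 against H3 and 3 of 18 at H3 against H1, beside 1.83% and 0.884%.

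In sham mice the F-test over the 7 regions passed for 8 of the 18 probe sets, beside 39.8% of all, so that regional levels were about as common here as among all probe sets. The regions come from the same 3 sham mice, which this fit does not take into account. In bulk tissue, fewer cells of a type and less RNA per cell cannot be told apart. Cebpd 1423233_at was highest in hippocampus, at 177 ± 14.9 (SD, n = 3), against 56.1 ± 15.4 in midbrain, the next region (1.44 on the log2 scale, adjusted p = 8.94e-05 by limma). The other 5 regions lay between 35.4 and 44.3 and no 2 neighbours in that order differed beyond their spread. The dimmer Cebpd 1456605_at passed the F-test (adjusted p = 0.00404) and was also highest in hippocampus, at 49.6. Its step to striatum, the next region at 26.9, was not called by limma (adjusted p = 0.139). Cebpb 1418901_at was also highest in hippocampus, at 261 ± 18.7, against 165, 160 and 180 on the 3 cortex arrays (0.59, adjusted p = 0.000659), and cortex stood above pons and medulla (0.42, adjusted p = 0.00339). Both differences lost their call without replicate number 1 (0.0607 and 0.103) or 2 (0.0669 and 0.0535). Pons and medulla, thalamus and midbrain did not differ beyond their spread, and striatum (88.4) and cerebellum (83.1) closed the order. The dimmer Cebpb 1427844_a_at passed the F-test (adjusted p = 0.00182), with hippocampus highest and cortex next. Neither step was called on it by limma, at 0.45 for hippocampus over cortex (adjusted p = 0.331) and 0.25 for cortex over pons and medulla (adjusted p = 0.525). Hippocampal sham samples had summed choroid plexus markers of 4810 (640 to 5430 as the means of other regions) and summed meningeal markers of 1410 (417 to 1110 elsewhere), and the part of either in these levels was not tested. Cebpa was highest in hippocampus at 143, against 116 in striatum, which did not differ (adjusted p = 0.288), and hippocampus was above thalamus by 0.91 (adjusted p = 0.000125). Pim3 1437100_x_at ran the other way, from 617 ± 132 in pons and medulla to 275 ± 16.6 in cortex, with no 2 neighbours in the order differing. Pim1 1435458_at was highest in cerebellum, at 79.5 ± 14.6, and lowest in hippocampus, at 27.5 ± 1.27. The dimmer Pim1 1423006_at did not pass the F-test (adjusted p = 0.0649) and was lowest in midbrain, at 18.6, with hippocampus at 25.4.

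**Figure D5:**
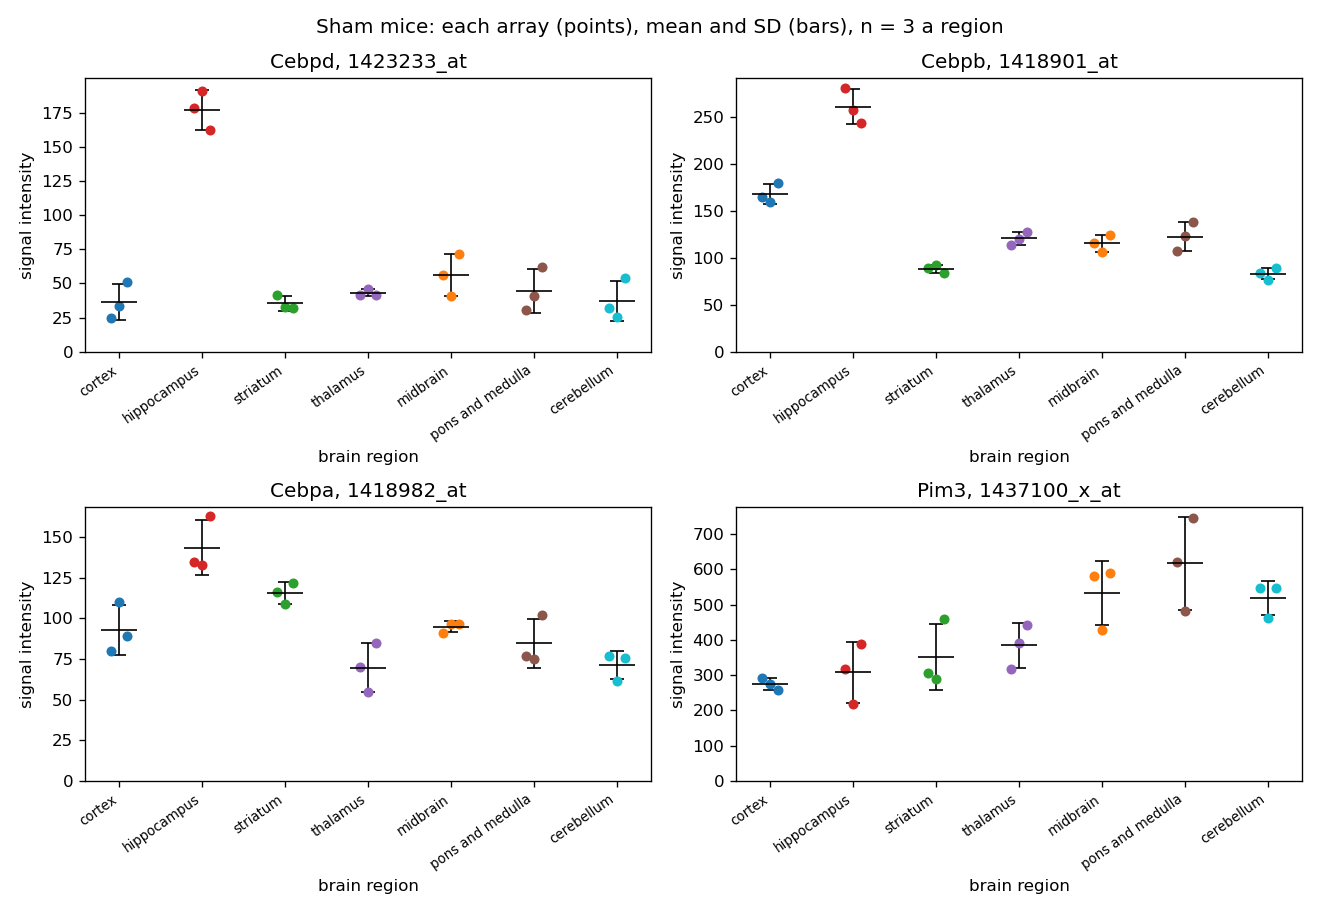
Signal intensity in sham mice by region for Cebpd, Cebpb, Cebpa and Pim3, each array a point, with the mean and SD of 3 arrays. For Cebpd the hippocampus arrays, at 162 to 191, stand apart from those of all other regions, and for Pim3 the hindbrain regions are above cortex.

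At 3 h of reoxygenation the replicate numbers stood apart for Cebpd. In midbrain it read 40, 54.5 and 122 at R3, in cerebellum 32.1, 32.7 and 132 and in pons and medulla 54.5, 35 and 136, with array number 3 last each time. That array was the highest of the 3 in 6 of the 7 regions, striatum being the exception at 46.2, 36.2 and 37.9. Over the whole brain the 3 numbers were at -0.03, -0.07 and 0.86 against the sham mean for Cebpd and at -0.01, 0.01 and 0.37 for Cebpb. The Cebpd mean at R3 (0.25, adjusted p = 0.645) thus rests on number 3. At R6 the Cebpd values were 0.58, 0.31 and 0.90, all above sham, at a mean of 0.60 (adjusted p = 0.368). The glucocorticoid-induced kinase Sgk1 split the same way at R3, with -0.56, -0.76 and 0.56, and the highest array in each of 7 regions was number 3. Fkbp5, a chaperone gene induced by glucocorticoids, read 0.53, 0.38 and 0.95, and Zbtb16, a zinc finger gene of the same response, 0.27, -0.17 and 0.91. Number 3 was the highest of the 3 for 7 of the 8 glucocorticoid response genes followed here. Dusp1 was the exception, at 0.01, -0.46 and -0.19, with number 3 highest in 1 of 7 regions, and Klf9, at 0.04, -0.07 and 0.22, had number 3 highest in 4 of 7.

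Other genes of these pathways were taken from lists set for this description and followed with 1 probe set each in the whole-brain fit, where 1.2% of all probe sets were higher and 2.16% lower at H3, and 1.65% and 3.83% at R1. Of 4 measured relatives of the members, Ddit3, the C/EBP factor of the stress response also known as CHOP, was higher at R1 (0.25, adjusted p = 0.0286). Pim2 (-0.12), Trib3 (0.09) and Stk40 (-0.18) were not called. Of 12 genes of the cytokine and STAT3 input, Stat3 was higher at R1 (0.29, adjusted p = 0.00226) and 11 were not called, among them its feedback inhibitor Socs3 (0.16, adjusted p = 0.684) and the ligand Osm (-0.28, adjusted p = 0.0587). None of the 12 was called at H3. The median of this list was -0.08 at R1, beside -0.02 over all probe sets.

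Of 8 genes of the COP1 ligase and Tribbles partners, Det1, a component of the ligase, was lower at R1 (-0.33, adjusted p = 0.014), and none was called at H3. Of 15 measured acute phase and inflammatory genes known as C/EBP targets, such as Lcn2, Ptgs2 and Il1b, limma called none at H1, H3 or R1, with 1, 0 and 0 under an unadjusted p of 0.05, and their median was 0.01 at R1. None was called at R3, R6, R12 or R24 either, where 2, 5, 2 and 0 were under that p. The highest of them was Lcn2, an iron-binding acute phase protein, at 1.42 at R3 and 1.45 at R6 as the mean of 3 values. By replicate number it was at 0.26, 0.30 and 3.70 at R3, where number 3 was the highest array in 7 of 7 regions as with Sgk1, and at 2.69, 0.39 and 1.29 at R6. The mean at R3 thus rests on number 3. The summed neutrophil markers, 95.3 to 539 over the R3 arrays, against 103 to 166 over the sham arrays, had their highest value at that time point too, and their part in the Lcn2 values was not tested. Of 11 Pim substrates and survival genes, the cell cycle inhibitor Cdkn1a was higher at H3 (0.94, adjusted p = 0.00316) and R1 (1.29, adjusted p = 0.000135). Mcl1, a survival factor of the Bcl2 family, was higher at H3 (0.19, adjusted p = 0.0174), and its relative Bcl2l1 at R1 (0.24, adjusted p = 0.0473). Of 9 dimer partners of C/EBP proteins, Jun was higher at H1 (0.26, adjusted p = 0.0331), and Fos read 1.01 at H3 (adjusted p = 0.0794).

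Of 8 glucocorticoid response genes, a hormone input that is known to raise Cebpd, 3 were higher at H3, beside 1.2% of all probe sets, and 4 at R1, beside 1.65%, and none was lower. This list too was chosen with earlier results of these arrays known. At H3 these were Sgk1 (1.41, adjusted p = 0.00299), the receptor inhibitor Errfi1 (0.82, adjusted p = 1.46e-06) and the phosphatase Dusp1 (0.72, adjusted p = 0.0348), which was higher at H1 as well (1.02, adjusted p = 0.0219). At R1 they were Sgk1 (1.27, adjusted p = 0.00548), Errfi1 (0.68, adjusted p = 1.44e-05), the clock gene Per1 (0.47, adjusted p = 0.00112) and the transcription factor Klf9 (0.35, adjusted p = 0.00272). Fkbp5, Tsc22d3 and Zbtb16 of the same list were called at neither H3 nor R1. The median of the list was 0.45 at R1, beside -0.02 over all probe sets. Whether the hormone had a part in the changes of Cebpd was not tested.

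The named markers of each region were highest in their own region in all 7. Of the markers of 9 cell types, only the oligodendrocyte gene Opalin was called over the whole brain at H1, H3 or R1, higher at H3 (0.44, adjusted p = 0.0445) and R1 (0.56, adjusted p = 0.00644), and the summed markers of microglia ran from 926 to 3210 at H3 and from 863 to 3120 at R1, against 886 to 3200 in sham. The sum of the choroid plexus markers was uneven between samples, with a median of 2340 at H1, 1880 at H3 and 3430 at R1, against 1210 in sham, and ranges that overlap (281 to 6080, 308 to 6940 and 363 to 6800, against 283 to 5930). Its part in the changes of the members was not tested.

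The genes whose 49 changes from sham were most like those of a member, among 12745 genes with a mean intensity of at least 32, were found by correlation, given without a test because the points share sham arrays. For Cebpd they were Sgk1 (0.85), the arrestin relative Arrdc2 (0.83) and Nfkbia, the inhibitor of NF-kappa B (0.82). For Cebpb they were Errfi1, Hmgb2 and Ankrd37, each at 0.82. For Pim3 they were Spsb1 (0.88), the transcription factor Klf15 (0.87) and the clock repressor Ciart (0.86). Cebpg, on 1425262_at, had the closest likeness of any member, to the splicing kinase Clk1 (0.91). The RNA-binding protein Mex3c (0.89) and the stress sensor Ern1 (0.88) came next. The other 2 probe sets of Cebpg had correlations of 0.45 and 0.09 with 1425262_at. For the other members the closest gene was less alike, with P4hb for Cebpa (0.74), Nav1 for Trib2 (0.70), Dexi for Trib1 (0.69) and Tug1 for Pim1 (0.61). Among the members themselves, each by its brightest probe set, Cebpb and Cebpd had a correlation of 0.72. Cebpb and Pim3 had 0.72, Cebpd and Pim3 0.71 and Pim3 and Cebpg -0.74.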

How the data were processed

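The authors deposited a table of linear signal intensity values, 1 column per array, for 45101 probe sets, 64 of them controls that were left out. The submitters' processing notes name GCOS 1.3. The study's methods describe GCRMA with quantile normalization, which the values do not show: they are linear, run down to 0.0117 and have a common trimmed mean, and 23.3% to 30.2% of the values of an array are below 16. They were therefore analysed as log2(value + 16), which the design had set for a linear table. The number of arrays limits the precision, and p values measure the spread between samples that the labels only number. Groups, regions and replicate numbers came from the labels.

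A separate fit per region used limma 3.58.1 (R 4.3.3, the data.table package, version 1.17.8), 8 group means over 24 arrays, with moderated tests and Benjamini-Hochberg adjustment over 45037 probe sets. The whole-brain fit, the region F-test (duplicateCorrelation, consensus 0.0369) and the fit of sham levels used the same values. Of the probe sets, 34945 name 1 symbol, 932 several and 9160 none. A listed gene was represented by its brightest probe set, and 4 listed pathway genes and some markers have none here and were not analysed. Every member was named, with the 3 genes of highest correlation where given. The members and lists were chosen with earlier results of these data known. Scripts were tested on simulated data. Alternatives were other added constants, quantile scaling, a filter on dim probe sets and the trend and robust options. Others were the study's ANOVA and t-test without its fold-change filter, the replicate number as a block and leaving out replicates. Leaving out each single value of the whole-brain fit was chosen after seeing the data.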

Additional observations from a re-analysis of the deposited data

How the results depend on the processing

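Of 43 calls of a member's probe set, all 43 kept their direction and stayed past the threshold with 32 as the added constant and with the trend and robust options, 42 of 43 with quantile scaling or the replicate block, 38 of 43 with 1 as the constant, and 38 of the 38 that a filter on probe sets below the median leaves. The methods' first rule, an ANOVA with a false discovery rate followed by a t-test and 1.5-fold, was counted for higher pairs alone. The genes that the methods added from an ANOVA after a fold-change filter were not sought, and the values were not GCRMA values. This first rule called 9 pairs higher at H3 and 12 at R1, beside 408 and 313 of all 315259 pairs of probe set and region. The 7 pairs higher at H3 became 0 under the methods' t-test with Benjamini-Hochberg instead, and 0 to 8 when a replicate was left out. That t-test called only 1 pair higher over all probe sets at H3 and 2 at R1. The 9 pairs higher at R1 became 14 with the trend and robust options, 18 with the filter, 18 with the replicate block, 0 under the methods' t-test after Benjamini-Hochberg and 0 to 10 when a replicate was left out. At H1 the methods' ANOVA and t-test at 1.5-fold called 2 pairs higher, beside 132 over all probe sets and regions, where limma called 0. For the trend and robust options, the filter, the block and the left-out replicates, calls over all probe sets were not counted. The 1 pair at R1 against H3 became 0 without any replicate number. Over the whole brain, 6 calls at H3 became 2 to 6 and 7 at R1 became 2 to 8 when a replicate was left out. The difference of Cebpg between R1 and H3 (0.25) shrank to -0.0021 (SE 0.0586) at probe set 1425261_at. The cause of these shifts was not tested. Equal numbers did not pair the samples of a time point with those of sham by the rule used: their deviations had a mean correlation of 0.07, over 0.1 in 48 of 147 pairs. Across regions of 1 time point the mean correlation was 0.04 for the same number and -0.02 for other numbers. Fits with the replicate number as a block called 10 pairs higher at H3, 6 probe sets at H3 and 9 at R1 over the whole brain, and without the block the region test called 0 members at H3 and 0 at R1. Dim probe sets limit what can be read from Trib1, Pim1 and the second probe sets of Cebpb and Cebpd.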
